A study of Mus musculus with 5 samples.

Results

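The conjugating enzymes of the liver were examined in RNA-seq of livers from CCl4-treated mice with and without the histone deacetylase inhibitor givinostat. The genes were taken by symbol: the UDP-glucuronosyltransferases (UGT; Ugt1, Ugt2 and Ugt3), the cytosolic sulfotransferases (SULT), the cytosolic and mitochondrial glutathione S-transferases (GST; classes alpha, kappa, mu, omega, pi, theta and zeta) and the microsomal glutathione S-transferases (MGST). The count tables held 66 such genes among 24808 named genes: 20 UGT, 21 SULT, 22 GST and 3 MGST. Counts were 0 in every library for Gstt4, Sult1c1, Sult2a6, Sult6b2 and Ugt2a2, and 49 genes (14 UGT, 12 SULT, 20 GST and 3 MGST) passed the low-count filter.

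All mice were C57BL/6 and 16 weeks old per the labels, and all had received carbon tetrachloride (CCl4), a solvent that injures the centre of the liver lobule once cytochrome P450 enzymes have turned it into a reactive radical. The control group received CCl4 (n = 3 libraries) and the other group received CCl4 and givinostat (n = 2 libraries), so every difference below is between injured livers, and no level in uninjured liver was measured in these groups. Below, "CCl4 alone" and "givinostat" stand for these groups. The labels give no dose, schedule or sex. Whole liver was sequenced, so a gene's level is an average over all liver cell types. Nothing in the labels says that the libraries came from separate mice beyond the series design, which speaks of mice, and p-values measure the spread between these libraries.

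Conjugation is the step of detoxification that makes a compound soluble enough to leave the cell. UGT enzymes in the endoplasmic reticulum attach glucuronic acid from UDP-glucuronate, sulfotransferases in the cytosol attach sulfate from 3'-phosphoadenosine-5'-phosphosulfate (PAPS), and glutathione transferases attach the tripeptide glutathione to electrophiles. Hepatocytes carry most of this capacity, and many of the genes lie in arrays of close paralogs that are induced by the sensors NRF2, CAR, PXR, AHR and PPARα or differ in level between male and female liver.

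Total counts were 18634801 to 21773867 per library, and the 66 genes took 0.990 to 1.34% of them. Hepatocyte markers summed to 95864 to 109039 CPM (counts per 1e6, scaled to library size) in the CCl4 libraries and to 104611 and 99319 CPM in the givinostat libraries. Xist was at 661 to 809.97 CPM in all 5 libraries, and the Y-linked genes Ddx3y, Eif2s3y, Kdm5d and Uty were at 0 counts in each, the pattern of female tissue. Principal components of log2 CPM put CCl4 replicate 1 far from its group on the first axis (38.0% of variance) and divided the treatments on the second (30.6%).

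Among the conjugating enzymes, both givinostat libraries lay below all CCl4 libraries for 3 of 7 mu and 2 of 3 pi class glutathione transferase genes, and above them for 2 of 3 tested theta class and 2 of 5 tested Sult2a genes. The remaining genes of these groups overlapped, with Gstm5, Gstp3 and Gstt1 at log2 fold changes of -0.07, -0.04 and 0.04. None of these differences passed the test over all genes. In the quasi-likelihood fit of edgeR, adjusted after Benjamini-Hochberg over 13590 genes, 0 of the 49 tested genes were called at an adjusted p of 0.05, where 0.00736% of all genes were called in either direction, 0.00736% as higher and 0% as lower. DESeq2 called 1 of them lower, Gstp2, against 0.581% of all genes, and 0 higher, against 0.508%. At an unadjusted p under 0.05, 15 of the 49 (30.6%) stood out, against 7.45% of all genes. Of these, 8 (16.3%) were higher with givinostat, against 3.52% of all genes, and 7 (14.3%) were lower, against 3.93%. Both givinostat libraries lay above all CCl4 libraries for 10 genes (20.4%, against 11.7% of all genes) and below them for 8 (16.3%, against 11.7%).

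The fitted log2 difference (the log2 fold change of givinostat over CCl4, negative where givinostat was lower) was positive for 21 of the 49 genes, where 46.2% of all genes were positive, and negative for 28, where 53.8% were negative. Its median was -0.07, against -0.02 over all genes tested. The families differed in their medians, at -0.28 for the UGT, 0.68 for the SULT, -0.31 for the GST and -0.23 for the MGST genes, and no test was made of these medians. The conjugating enzymes also varied among livers of the same treatment. Of 40 genes with a mean of at least 10 CPM, 14 (35.0%) differed more than 2-fold between the lowest and the highest CCl4 library, where 5.88% of the 8128 genes at that level did. These 14 were Gsta1, Gsta2, Gstm1, Gstm2, Gstm3, Gstm4, Sult2a1, Sult2a2, Ugt1a1, Ugt1a5, Ugt1a6a, Ugt1a6b, Ugt1a9 and Ugt2b35.

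**Figure D1:**
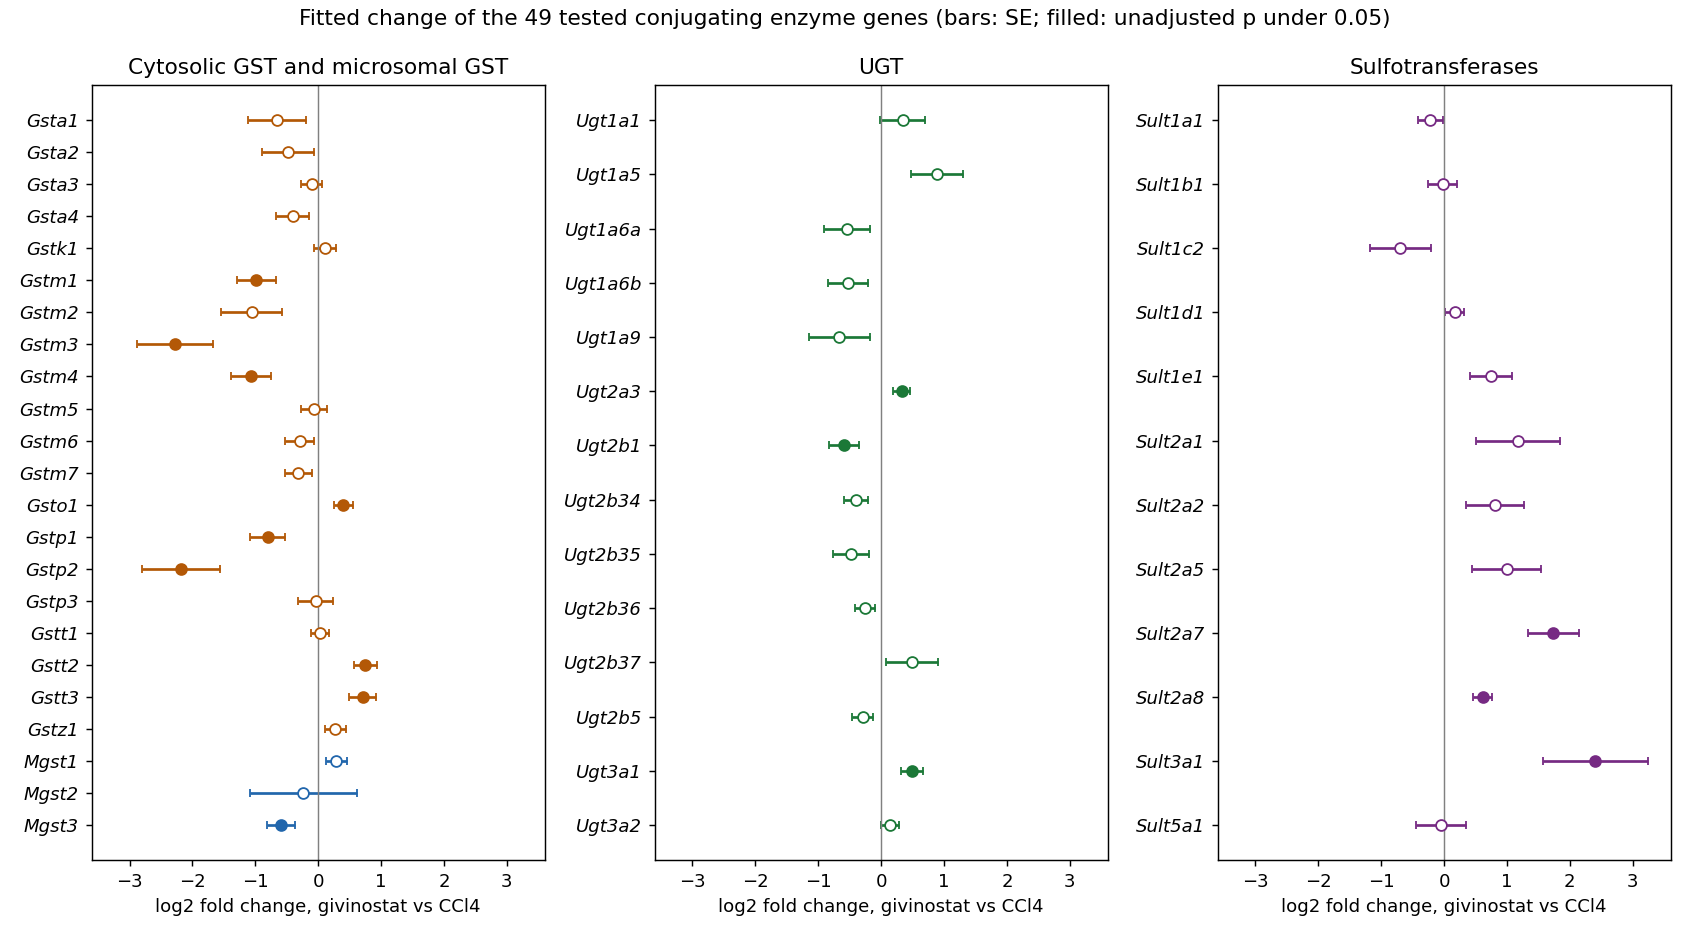
Fitted log2 difference (givinostat against CCl4) of each of the 49 tested genes with its standard error, from edgeR on 3 CCl4 and 2 givinostat libraries; filled points had an unadjusted p under 0.05. Mu and pi class genes sit left of 0, down to -2.28 for Gstm3, and the Sult2a genes sit right of it, up to 1.74 for Sult2a7.

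Ranked by CPM per kilobase of transcript, Mgst1 led with a mean of 2379 over the 5 libraries (range 2106 to 3036). Gstm1 followed at 1425 (755 to 2265) and Gstp1 at 1297 (867 to 1874), and the ranges of these neighbours overlap. Gsta3 was next at 555, then Ugt2b5 at 339, Sult1a1 at 294, Ugt2b36 at 265 and Gstz1 at 264 CPM per kilobase. Mgst1, Gstm1, Ugt2b5 and Sult1a1 took the largest share of their family's counts in every library, and the share of the SULT total held by Sult1a1 was 46.6 to 58.3% in the CCl4 libraries and 46.2 and 33.3% with givinostat.

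The mu class genes lie in one array on chromosome 3 (107895821 to 108044894, GRCm38). The sequences before the start sites of Gstm3 and Gstm1, the mu genes with the largest difference and the highest level, are shown with that of Gstm5, whose level differed least. They are followed by those of the pi class neighbours Gstp1 and Gstp2. Each runs 5′ to 3′ over the 150 bases before the RefSeq start site (GRCm38.p6; for Gstm1 the more downstream of its start sites). Capitals mark the antioxidant response element core TGACNNNGC, to which NRF2 binds with small Maf proteins, the TATA box TATAAA and the AP-1 motif TGAGTCA, searched on both strands. The AP-1 motif was added after the sequences had been seen.
Gstm3, chr3:107969175-107969324, minus strand: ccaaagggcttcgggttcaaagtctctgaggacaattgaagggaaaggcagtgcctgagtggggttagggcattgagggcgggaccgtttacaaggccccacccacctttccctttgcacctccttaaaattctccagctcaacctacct
Gstm1, chr3:108017819-108017968, minus strand: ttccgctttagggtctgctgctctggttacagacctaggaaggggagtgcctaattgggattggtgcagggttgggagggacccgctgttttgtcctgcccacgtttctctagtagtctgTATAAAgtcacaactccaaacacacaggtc
Gstm5, chr3:107895704-107895853, plus strand: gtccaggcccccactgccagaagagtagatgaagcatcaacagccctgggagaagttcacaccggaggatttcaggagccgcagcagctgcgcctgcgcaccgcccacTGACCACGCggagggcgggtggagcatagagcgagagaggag
Gstp1, chr19:4037913-4038062, minus strand: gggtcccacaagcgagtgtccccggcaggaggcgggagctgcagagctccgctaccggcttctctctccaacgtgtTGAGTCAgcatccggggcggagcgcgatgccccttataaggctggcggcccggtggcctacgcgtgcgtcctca
Gstp2, chr19:4042222-4042371, minus strand: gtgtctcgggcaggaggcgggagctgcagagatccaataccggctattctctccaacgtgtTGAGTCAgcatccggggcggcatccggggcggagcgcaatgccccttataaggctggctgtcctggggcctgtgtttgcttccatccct

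Promoter entries, of 250 bases before to 50 after a start site, were found for 58 of the 66 genes. The Gstm3 entry held none of these motifs, nor the AHR core GCGTG. That of Gstm1 held a TATA box beginning 30 bases before the start, and that of Gstm5 an antioxidant response element core beginning 42 bases before it. The Gstm5 entry also held the AP-1 motif, beginning 176 bases before the start, and a pair of AHR cores (171 and 38 bases before). The letters TATAAA stood within the 50 bases after its start. The Gstm1 entry held an AHR core 231 bases before. Gstp1 and Gstp2 each held the AP-1 motif, beginning 74 and 89 bases before the start, and Gstp1 an AHR core 13 bases before. Of 70 promoter entries of the conjugating enzymes, 4 held the antioxidant response element core and 16 the letters of the TATA box. Matches were counted at any position and on either strand. The AHR core was held by 13 and the AP-1 motif by 9. Because the AP-1 motif was chosen after these sequences had been seen, its count is no test of enrichment. The HNF1 and C/EBP palindromes and the direct repeat 1 of PPAR and HNF4 were held by 0, against at most 0.183% of all promoters. Of all 32851 promoters in the table, 12.4% held the antioxidant response element core, 13.6% the TATA box, 32.4% the AHR core and 5.2% the AP-1 motif. The antioxidant response element core was present for Gsta3, Gstm5, Gstm7 and Mgst1 among the conjugating enzymes. Only exact matches to TGACNNNGC were counted, so variant forms of the element, in Gstp1 and Gstp2 or elsewhere, were not looked for. The promoters of Gstp1 and Gstp2 matched at 81.0% of their positions after alignment. Those of Gstm3 and Gstm1 matched at 63.3%, the highest of 60 pairs of mu promoters, which ranged from 49.3%.

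Mu class enzymes conjugate epoxides, quinones and aldehydes with glutathione. All 7 had a negative fitted log2 difference with givinostat, with a median of -0.98, and 3 had an unadjusted p under 0.05. With each library left out in turn the median ran from -1.23 to -0.64, and 1 of the 7 turned positive without givinostat replicate 2. Gstm3 was at 421, 489.6 and 116 CPM in the CCl4 libraries (replicates 1, 2 and 3, the order used throughout) and 97.4 and 43.3 CPM under givinostat. The groups did not overlap, but CCl4 replicate 3 lay much nearer to the givinostat libraries than to the other CCl4 libraries. Group means were 342 ± 199 CPM (SD, n = 3) and 70.3 ± 38.3 CPM (SD, n = 2), and its log2 difference was -2.28 ± 0.61 (SE; unadjusted p = 0.00526, adjusted p = 0.377, edgeR, Benjamini-Hochberg). With each library left out in turn, the value ran from -2.98 to -1.81.

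Gstm1, the first cytosolic glutathione transferase per kilobase, was at 2553, 2919 and 1394 CPM under CCl4 alone and 1346 and 973 CPM under givinostat. The same order of libraries was seen, with CCl4 replicate 3 just above givinostat replicate 1. Its log2 difference was -0.98 ± 0.31 (SE; adjusted p = 0.493, edgeR, Benjamini-Hochberg). Gstm4 was at 75.4, 99.1 and 48.5 CPM under CCl4 alone and 43.6 and 27.4 CPM under givinostat, a log2 difference of -1.07 ± 0.32 (SE; edgeR adjusted p = 0.458).

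Gstm2 was at 83.4, 116 and 33.4 CPM under CCl4 alone and 49.7 and 24.9 CPM under givinostat, so that its groups overlapped (-1.06 ± 0.49, SE, log2). Gstm6 and Gstm7, at 55.1 and 31.9 CPM under givinostat, had log2 differences of -0.29 ± 0.23 and -0.32 ± 0.21 (SE). Gstm5, which in mouse is most abundant in brain and testis, was at 10.9, 13.6 and 12.9 CPM under CCl4 alone and 13.5 and 10.4 CPM under givinostat, a log2 difference of -0.07 ± 0.20 (SE). Along the array the order is Gstm5, Gstm7, Gstm6, Gstm3, Gstm2, Gstm1 and Gstm4, so the 4 genes with the largest differences lie side by side. The summed level of the class was 3240.3, 3767 and 1699.7 CPM under CCl4 alone and 1649 and 1154 CPM under givinostat. Gstm1 shares 9.36% and Gstm3 15.8% of its 50-base stretches with other conjugating enzyme genes, and Gstm4 none.

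**Figure D2:**
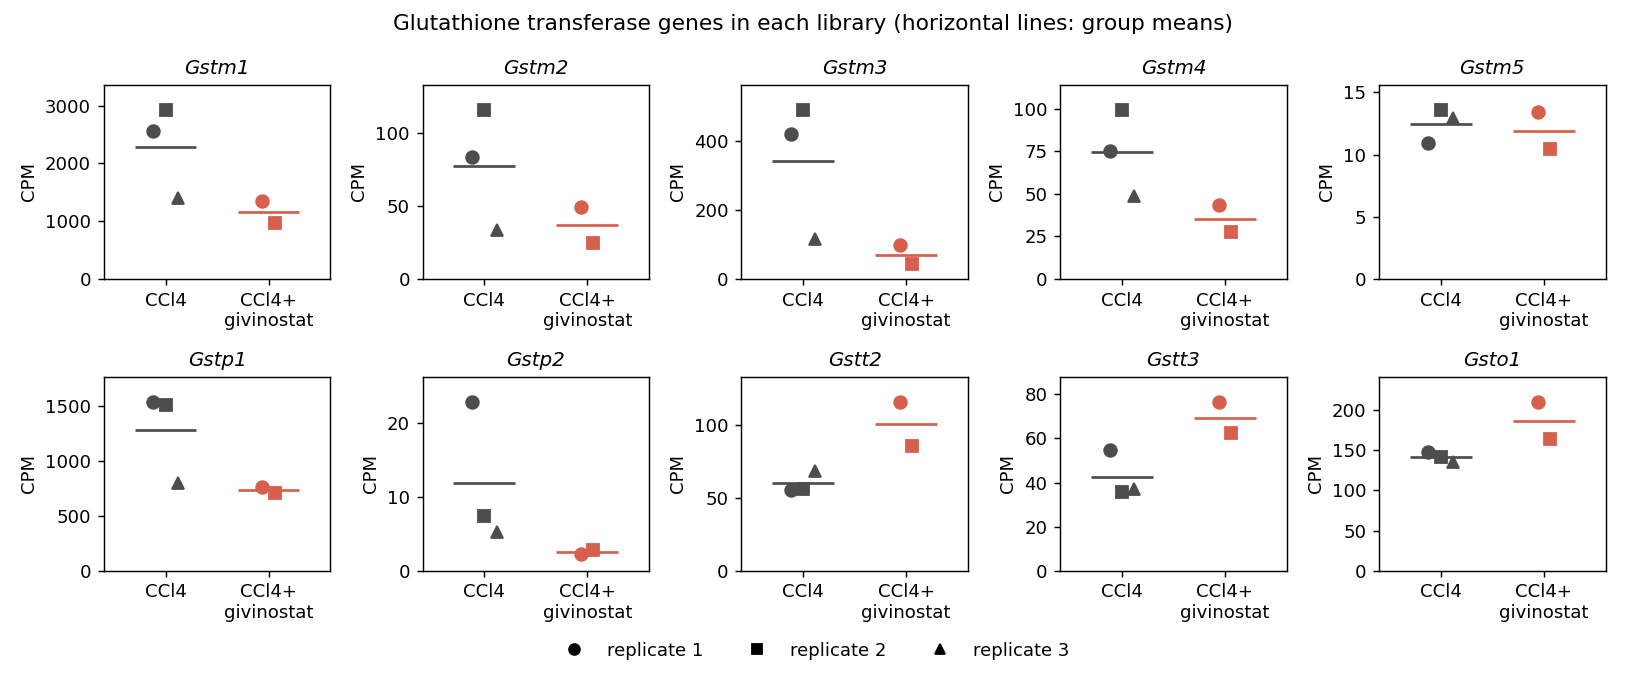
CPM of 10 glutathione transferase genes in each library (vertical axes, linear from 0; marker shapes give the replicate, horizontal lines the group means). CCl4 replicate 3 lies near the givinostat libraries for Gstm1, Gstm3 and Gstp1, at 1394, 116 and 804 CPM, whereas both givinostat libraries lie above all CCl4 libraries for Gstt2, Gstt3 and Gsto1.

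Pi class enzymes conjugate reactive aldehydes such as acrolein and are more abundant in male than in female mouse liver. Gstp1 was at 1538, 1510.2 and 804 CPM under CCl4 alone and 761 and 712 CPM under givinostat. As for the mu genes, CCl4 replicate 3 lay beside the givinostat libraries. The means were 1284 ± 416 CPM (SD, n = 3) and 736 ± 34.6 CPM (SD, n = 2), a log2 difference of -0.80 ± 0.28 (SE; adjusted p = 0.525, edgeR, Benjamini-Hochberg). Gstp2 was at 22.8, 7.41 and 5.25 CPM under CCl4 alone and 2.31 and 2.87 CPM under givinostat. It was the one conjugating enzyme gene past DESeq2's threshold (log2 difference -2.19 ± 0.62, SE; adjusted p = 0.00937 by DESeq2 and 0.420 by edgeR, Benjamini-Hochberg), and CCl4 replicate 1 stood above all other libraries. Without CCl4 replicate 1 the log2 difference of Gstp2 was -1.29.

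Of the coding transcripts, 51.0% of the 50-base stretches of Gstp1 and 44.3% of those of Gstp2 are shared with each other, so the split of reads between them is uncertain. Gstp3 was at 7.87, 11.4 and 15.5 CPM under CCl4 alone and 11.9 and 10.5 CPM under givinostat, with no order by group. Bile duct cells also carry GSTP in rodent liver. Of 10 tested cholangiocyte markers, 8 were lower with givinostat (median log2 difference -0.65), and the 12 listed markers summed to 235 to 314 CPM under CCl4 alone and to 213 and 176 CPM under givinostat. None of the 12 was at 0 in all libraries. At an unadjusted p under 0.05, 4 of the 10 were lower, against 3.93% of all genes. DESeq2 called 2 lower, against 0.581% of all genes. The highest sum, 314 CPM, was in CCl4 replicate 3, the CCl4 library with the lowest Gstp1. In whole tissue, fewer cells of a type and less RNA per cell cannot be told apart, and the part of these markers in the pi class values was not tested. Markers of mesothelial cells, the lining of the outside of the liver, were lower with givinostat in all 8 tested cases (median log2 difference -3.29), each at an unadjusted p under 0.05, with 6 called by DESeq2. Apart from Krt8, a keratin that hepatocytes also express, they were at most at 4.73 CPM. The 9 measured markers summed to 465 to 752 CPM under CCl4 alone and to 427 and 377 CPM under givinostat, nearly all of it Krt8, and none was at 0 in all libraries. Their part in the values of the conjugating enzymes was not tested either.

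Theta class enzymes conjugate small halogenated compounds and sulfate esters, and 2 of the 3 tested genes had higher levels with givinostat at an unadjusted p under 0.05. Gstt2 was at 55.1, 56.1 and 68.4 CPM under CCl4 alone and 115 and 85.7 CPM under givinostat, with no overlap. Its means were 59.9 ± 7.42 CPM (SD, n = 3) and 101 ± 21.0 CPM (SD, n = 2), and its log2 difference of 0.75 ± 0.18 (SE) had an unadjusted p of 0.00311 and an adjusted p of 0.330 (edgeR, Benjamini-Hochberg). Gstt3 was at 54.6, 35.7 and 37.1 CPM under CCl4 alone and 76.5 and 62.4 CPM under givinostat, again with no overlap, a log2 difference of 0.71 ± 0.21 (SE; edgeR adjusted p = 0.466). Without CCl4 replicate 1, the highest of its group, edgeR called Gstt3 (log2 difference 0.93, adjusted p = 0.0153). Gstt1, the neighbour of both on chromosome 10, was at 116 to 133 CPM under CCl4 alone and 134 and 121 CPM under givinostat (0.04 ± 0.14, SE, log2). None of the 3 shares a 50-base stretch with another conjugating enzyme gene.

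Omega, zeta and kappa class enzymes have roles beyond conjugation. Gsto1, a thiol transferase and dehydroascorbate reductase, was at 148, 142 and 135 CPM under CCl4 alone and 210.0 and 164 CPM under givinostat. Its groups did not overlap, and its log2 difference was 0.40 ± 0.15 (SE; edgeR adjusted p = 0.603). Gstz1, the maleylacetoacetate isomerase of tyrosine breakdown, was at 383, 426 and 402 CPM under CCl4 alone and 556 and 417 CPM under givinostat, which overlap. Gstk1, a mitochondrial and peroxisomal enzyme, had a log2 difference of 0.11 ± 0.18 (SE). Gsto2 had 0 counts in each CCl4 library and 1 and 5 counts with givinostat, and was not tested.

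Alpha class enzymes handle lipid hydroperoxides and the lipid aldehyde 4-hydroxynonenal. All 4 had a negative fitted value, with a median log2 difference of -0.44, and none had an unadjusted p under 0.05. Gsta3, the first of the class per kilobase, was at 933, 781 and 782 CPM under CCl4 alone and 865 and 685 CPM under givinostat (-0.10 ± 0.17, SE, log2). Gsta1 was at 57.6, 61.2 and 17.0 CPM under CCl4 alone and 30.1 and 27.5 CPM under givinostat, so that the givinostat libraries lay within the range of the CCl4 libraries. Gsta2 was at 115, 78.6 and 35.1 CPM under CCl4 alone and 61.3 and 47.9 CPM under givinostat, also within that range. Gsta1 shares 44.6% of its 50-base stretches with Gsta2. Gsta4, whose product prefers 4-hydroxynonenal, was at 111, 70.6 and 58.1 CPM under CCl4 alone and 63.4 and 57.6 CPM under givinostat. Without CCl4 replicate 1 the class median was -0.07.

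The microsomal glutathione transferases are membrane proteins unrelated in fold to the cytosolic enzymes. Mgst1, which also reduces lipid hydroperoxides, was at 2457, 2703 and 2488 CPM under CCl4 alone and 3542 and 2692 CPM under givinostat. Givinostat replicate 1 was the highest library and givinostat replicate 2 lay below CCl4 replicate 2, a log2 difference of 0.29 ± 0.17 (SE; edgeR adjusted p = 0.820). Mgst3 was at 25.8, 28.7 and 19.4 CPM under CCl4 alone and 18.4 and 14.4 CPM under givinostat, just below the lowest CCl4 library (-0.59 ± 0.22, SE, log2; unadjusted p = 0.0259, edgeR adjusted p = 0.561). Mgst2, an enzyme that can make leukotriene C4, had 1 to 12 counts in each library.

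**Figure D3:**
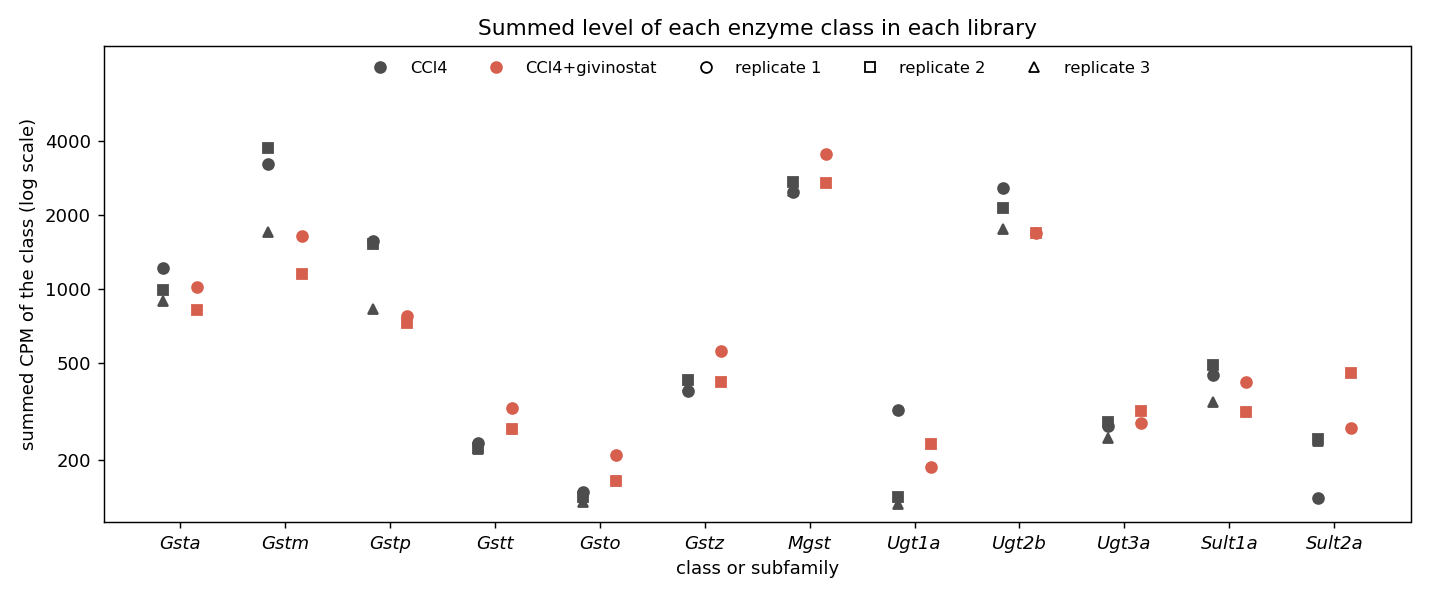
Summed CPM of each class or subfamily in each library (log axis; grey CCl4, red CCl4 and givinostat; shapes give the replicate). The givinostat libraries lie below all CCl4 libraries for the mu, pi and Ugt2b genes and above them for the theta, omega and Sult2a genes.

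The Ugt1a genes share their last exons and differ by their first, and counts per symbol are therefore uncertain: 53.9 to 96.0% of their 50-base stretches occur in another conjugating enzyme gene. Ugt1a1, the bilirubin glucuronosyltransferase, was at 186, 75.8 and 87.4 CPM under CCl4 alone and 129.9 and 165 CPM under givinostat. CCl4 replicate 1 was above both givinostat libraries and the other CCl4 libraries were below them (0.34 ± 0.35, SE, log2). Ugt1a5 was at 12.56, 5.92 and 4.0 CPM under CCl4 alone and 12.58 and 15.1 CPM under givinostat. It counts among the 10 genes with both givinostat libraries above all CCl4 libraries, but givinostat replicate 1 all but equalled CCl4 replicate 1. Its log2 difference was 0.88 ± 0.41 (SE; edgeR adjusted p = 0.724). Without CCl4 replicate 1, edgeR called both, Ugt1a1 with a log2 difference of 0.85 (adjusted p = 0.0301) and Ugt1a5 with 1.48 (adjusted p = 0.0171).

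Ugt1a9, which glucuronidates phenols and fatty acids, was at 71.3, 29.1 and 19.4 CPM under CCl4 alone and 21.8 and 28.6 CPM under givinostat. Here too CCl4 replicate 1 stood apart, and the rest overlapped. The log2 difference was -0.66 ± 0.48 (SE), and 0.057 without CCl4 replicate 1. Ugt1a6a and Ugt1a6b, which act on small planar phenols, had their highest value in CCl4 replicate 1, at 24.8 and 25.3 CPM, and lay between 9.46 and 15.8 CPM in the other 4 libraries. The summed level of the Ugt1a genes was 321, 141 and 132 CPM under CCl4 alone and 187 and 233 CPM under givinostat. The median log2 difference of the 5 tested genes was -0.52, and 0.06 without CCl4 replicate 1. Ugt1a2, Ugt1a7c and Ugt1a10 did not pass the filter.

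The Ugt2b genes, whose products glucuronidate steroids and bile acids, include the UGT genes with the highest level per kilobase, Ugt2b5 and Ugt2b36. Of the 6 tested, 5 had a negative fitted value (median log2 difference -0.35, and -0.18 without CCl4 replicate 1). Ugt2b1 was at 179.7, 157 and 104 CPM under CCl4 alone and 89.5 and 106 CPM under givinostat, a log2 difference of -0.59 ± 0.23 (SE; unadjusted p = 0.0364, edgeR adjusted p = 0.629), with CCl4 replicate 3 between the givinostat libraries. Ugt2b5 was at 779, 685 and 577 CPM under CCl4 alone and 561 and 549.7 CPM under givinostat. Both givinostat libraries were below all CCl4 libraries, by little for CCl4 replicate 3 (-0.29 ± 0.17, SE, log2). Ugt2b34 was likewise below, at 357 and 389 CPM against 405 to 604 CPM (-0.40 ± 0.19, SE, log2).

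Ugt2b35 and Ugt2b36 overlapped, with log2 differences of -0.48 ± 0.29 and -0.26 ± 0.16 (SE; Ugt2b35 -0.16 without CCl4 replicate 1), and Ugt2b37 stayed near 1 CPM. The summed Ugt2b level was 2586, 2131 and 1754 CPM under CCl4 alone and 1684 and 1698 CPM under givinostat. Ugt2b5 shares 41.7% of its 50-base stretches with other conjugating enzyme genes. Ugt2a3, which lies in the same array on chromosome 5, went the other way, at 107, 113 and 100.5 CPM under CCl4 alone and 141 and 127 CPM under givinostat. Its groups did not overlap, and its log2 difference was 0.33 ± 0.14 (SE; unadjusted p = 0.0468, edgeR adjusted p = 0.665).

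The Ugt3a enzymes use other UDP-sugars than glucuronate, such as UDP-N-acetylglucosamine for human UGT3A1. Ugt3a1 was at 10.3, 10.4 and 8.99 CPM under CCl4 alone and 14.1 and 13.7 CPM under givinostat. The libraries of each group were close together and the groups did not overlap, with means of 9.89 ± 0.781 CPM (SD, n = 3) and 13.9 ± 0.223 CPM (SD, n = 2), and a log2 difference of 0.49 ± 0.18 (SE; edgeR adjusted p = 0.555). Ugt3a2 was at 238 to 277 CPM under CCl4 alone and 269 and 302 CPM under givinostat (0.14 ± 0.14, SE, log2).

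**Figure D4:**
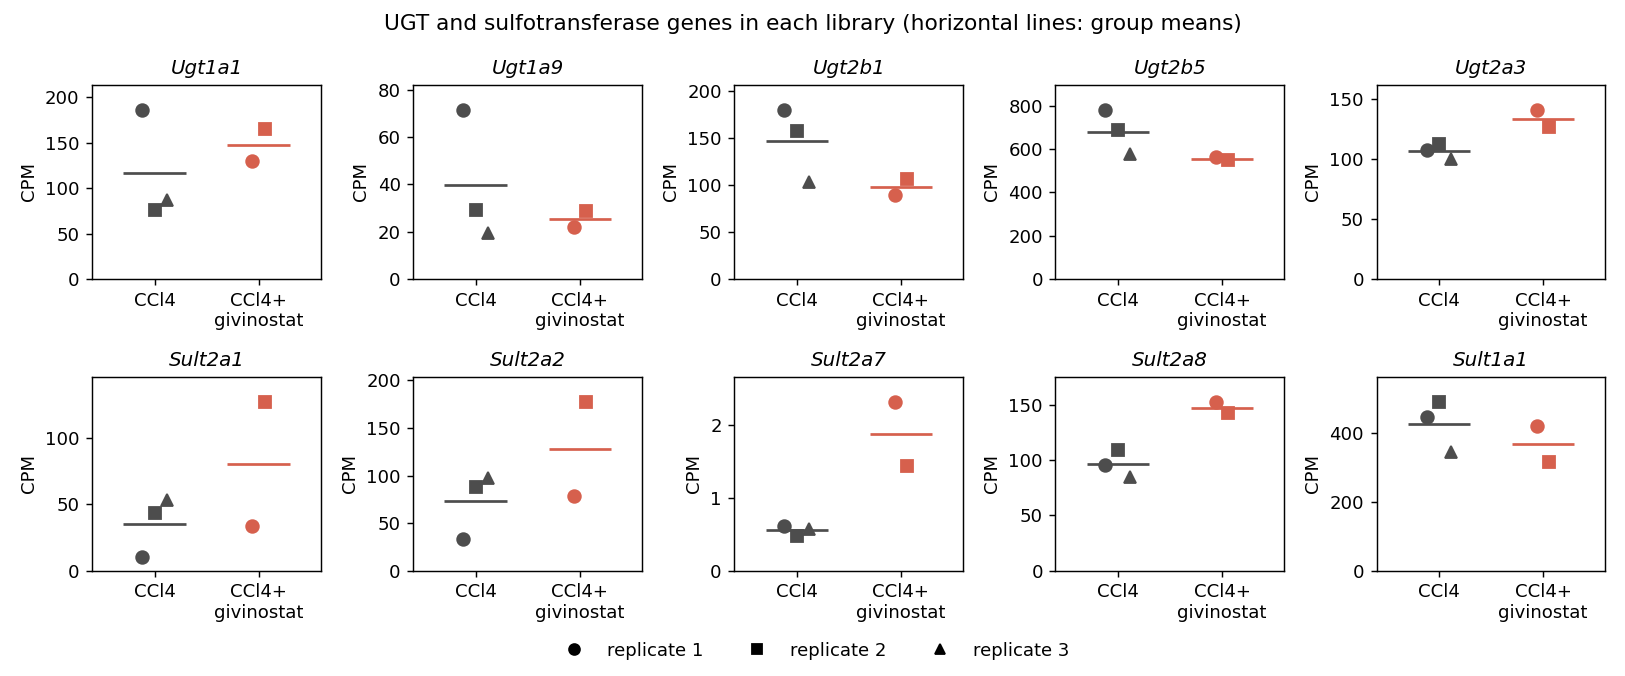
CPM of 5 UGT and 5 sulfotransferase genes in each library (vertical axes, linear from 0; marker shapes give the replicate, horizontal lines the group means). CCl4 replicate 1 stands apart for Ugt1a1 and Ugt1a9 at 186 and 71.3 CPM, givinostat replicate 2 for Sult2a1 at 127 CPM, and both givinostat libraries lie above all CCl4 libraries for Sult2a8.

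Sult2a enzymes sulfate hydroxysteroids and bile acids. The 5 tested genes all had a positive fitted value, with a median log2 difference of 1.00, but they did so in different ways. Sult2a8, described in mouse as a bile acid sulfotransferase, was at 95.2, 109 and 85.1 CPM under CCl4 alone and 152 and 142 CPM under givinostat. The groups were well apart, at 96.4 ± 11.9 CPM (SD, n = 3) and 147 ± 7.07 CPM (SD, n = 2), and its log2 difference of 0.61 ± 0.15 (SE) had an unadjusted p of 0.00380 and adjusted p-values of 0.345 by edgeR and 0.0823 by DESeq2 (Benjamini-Hochberg). Sult2a7 had 13, 10 and 11 counts with CCl4 and 47 and 32 counts with givinostat, a log2 difference of 1.74 ± 0.41 (SE; unadjusted p = 0.00275, edgeR adjusted p = 0.330). Neither gene shares a 50-base stretch with another conjugating enzyme gene.

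Sult2a1 and Sult2a2 varied widely within groups. Sult2a1 was at 10.2, 43.3 and 53.0 CPM under CCl4 alone and 33.8 and 127 CPM under givinostat, and Sult2a2 at 33.4, 88.4 and 97.0 CPM and at 78.7 and 177 CPM. In both, CCl4 replicate 1 was the lowest library, givinostat replicate 2 the highest, and givinostat replicate 1 lay within the range of the CCl4 libraries. The log2 differences were 1.18 ± 0.67 and 0.81 ± 0.46 (SE), and without givinostat replicate 2 that of Sult2a1 was -0.07 and the median of the 5 genes 0.38. That median was 0.61 without CCl4 replicate 1 and 1.55 without CCl4 replicate 3, and Sult2a2 was at 0.11 without givinostat replicate 2. Sult2a5 was at 0.758, 1.92 and 3.22 CPM and at 2.55 and 5.25 CPM, with givinostat replicate 1 between CCl4 replicates 2 and 3. Sult2a2 shares 62.1% of its 50-base stretches with other conjugating enzyme genes. These genes and Sult3a1 are more abundant in female than in male mouse liver. Of 14 tested female-biased reference genes of other families, 8 were higher and 6 lower with givinostat. At an unadjusted p under 0.05, 5 were higher and 4 lower, against 3.52 and 3.93% of all genes. DESeq2 called 4 higher and 2 lower, against 0.508 and 0.581% of all genes. The 17 listed genes summed to 1741 to 2306 CPM under CCl4 alone and to 3854 and 3959 CPM under givinostat. Of 14 tested male-biased genes, a list that includes Gstp2, 7 were higher and 7 lower. DESeq2 called 0 of them higher and 2 lower, among them Gstp2. The 16 listed genes summed to 2275 to 3216 CPM under CCl4 alone and to 2709 and 2088 CPM under givinostat. The part of sex-biased regulation in the levels of the conjugating enzymes was not tested.

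Sult3a1, an amine sulfotransferase, had 0, 8 and 2 counts with CCl4 and 19 and 19 counts with givinostat (2.41 ± 0.84, SE, log2; unadjusted p = 0.0203, edgeR adjusted p = 0.525). Without CCl4 replicate 2 the log2 difference of Sult3a1 was 4.01. Sult1e1, the estrogen sulfotransferase, was at 4.88, 5.82 and 2.70 CPM under CCl4 alone and 6.44 and 8.57 CPM under givinostat, with no overlap (0.75 ± 0.33, SE, log2; unadjusted p = 0.0556, edgeR). Sult1a1, the main phenol sulfotransferase, was at 445, 489 and 345 CPM under CCl4 alone and 418 and 315 CPM under givinostat (-0.22 ± 0.20, SE, log2). Sult1d1, which sulfates catecholamines, was at 155, 161 and 136 CPM under CCl4 alone and 185 and 154 CPM under givinostat (0.17 ± 0.15, SE, log2). Both overlapped between groups. Sult1b1 and Sult5a1 had log2 differences of -0.02 and -0.05, and Sult1c2, near 1 CPM, one of -0.70 ± 0.49 (SE).

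**Figure D5:**
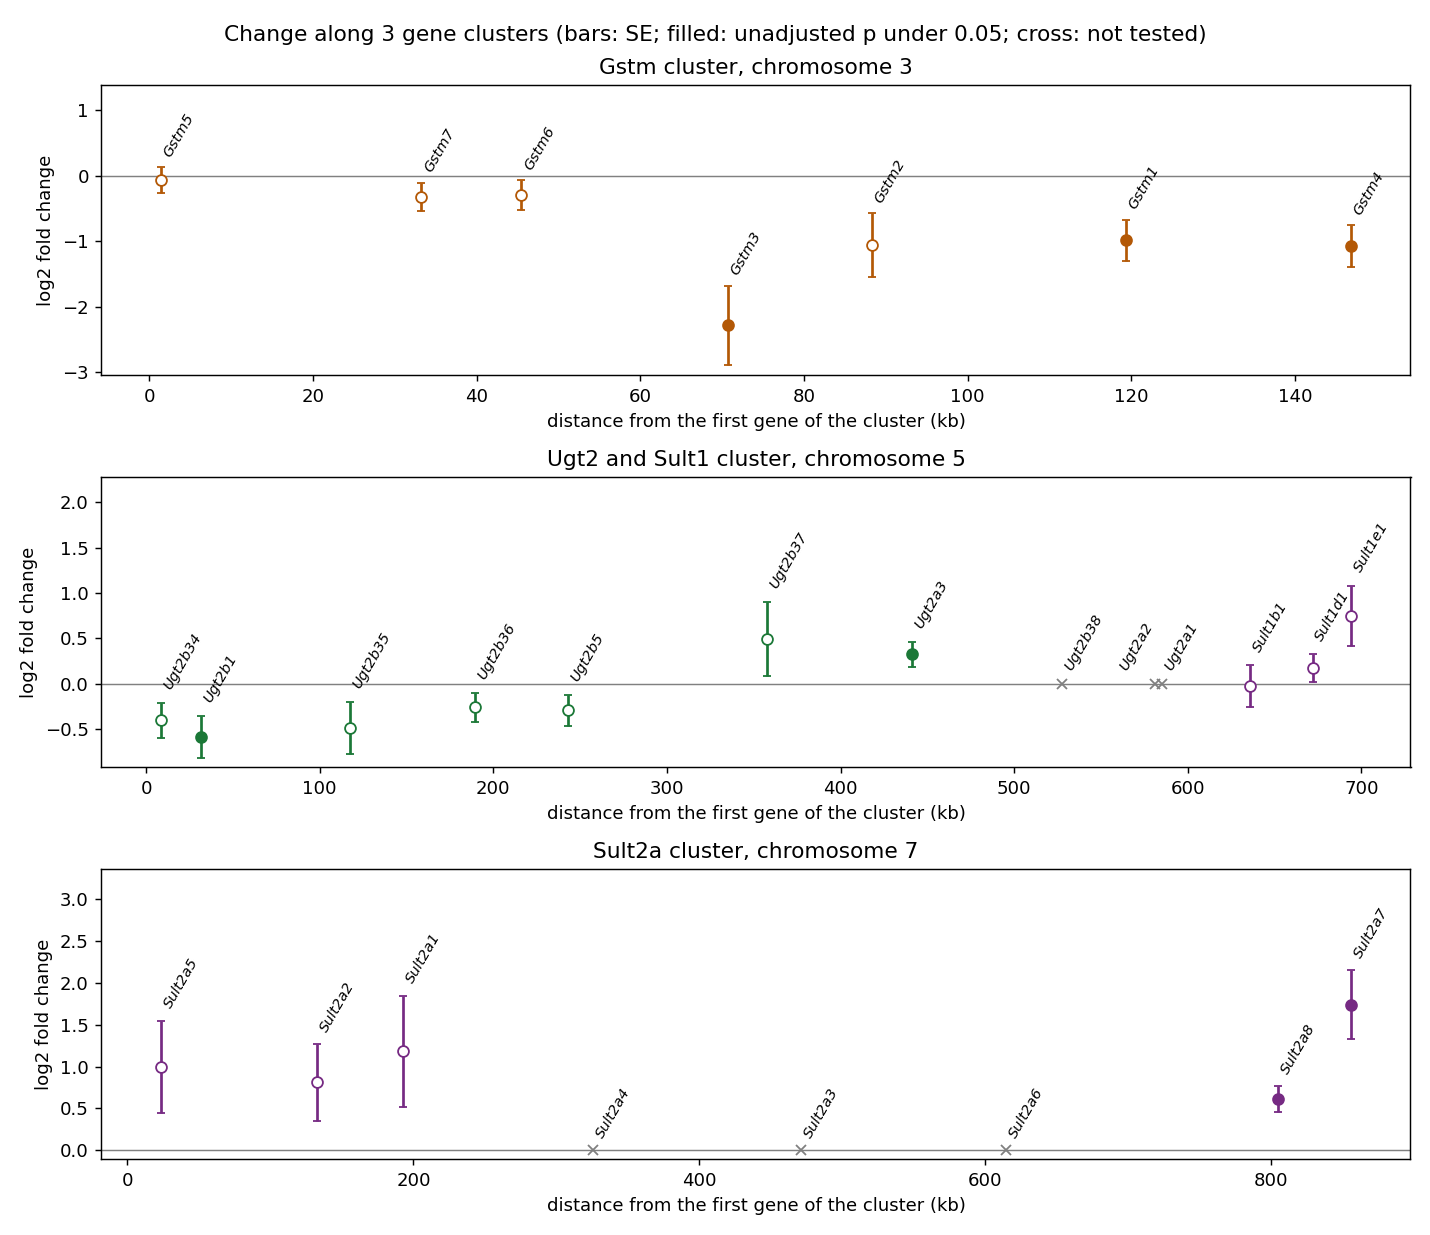
Fitted log2 difference with its standard error along 3 gene arrays (horizontal axes, kilobases from the first gene; filled points had an unadjusted p under 0.05, crosses were not tested). All 7 mu genes are below 0, the Ugt2 and Sult1 array holds values of both signs, and the 5 tested Sult2a genes are above 0.

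By position, the tested genes had fitted values of one sign in the mu, pi, theta, Sult2a and Ugt3a arrays in the fit to all libraries. Both signs were found in the Ugt1a array and in that of chromosome 5. The single sign of the mu, pi and theta arrays includes Gstm5, Gstp3 and Gstt1 at -0.07, -0.04 and 0.04. The sign of these genes, and that of Sult2a1, turned with a library left out. On chromosome 5 (86889767 to 87591594, GRCm38), 13 conjugating enzyme genes lie together, of which 10 were tested, 4 with a positive and 6 with a negative fitted value. The Ugt2b genes at one end were negative except Ugt2b37, and towards the other end Ugt2a3, Sult1d1 and Sult1e1 were positive and Sult1b1 was at -0.02. On chromosome 7 (13623967 to 14494230) all 5 tested Sult2a genes were positive. Because close paralogs can exchange reads, neighbours in an array are not independent measurements.

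Genes that supply the cosubstrates were mixed. Of 22 tested genes for UDP-glucuronate, PAPS and glutathione supply, 9 had a higher and 13 a lower fitted value (median log2 difference -0.22). At an unadjusted p under 0.05, 3 were higher and 5 lower, against 3.52 and 3.93% of all genes. Of the 22 genes DESeq2 called 2 higher and 1 lower, against 0.508 and 0.581% of all genes. The lower one was Cbs, cystathionine beta-synthase, which commits homocysteine to cysteine. It was at 647, 687 and 548 CPM under CCl4 alone and 353 and 356 CPM under givinostat, a log2 difference of -0.82 ± 0.16 (SE; adjusted p = 0.204 by edgeR and 0.00108 by DESeq2, Benjamini-Hochberg). The higher ones were Ahcy, which releases homocysteine (0.93 ± 0.22, SE, log2; DESeq2 adjusted p = 0.0206), and the cystine transporter Slc7a11 (1.37 ± 0.37, SE, log2; DESeq2 adjusted p = 0.0425).

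The sulfate transporter Slc26a1 was at 124, 124 and 121 CPM under CCl4 alone and 91.3 and 79.0 CPM under givinostat (-0.53 ± 0.14, SE, log2). Ugdh, which makes UDP-glucuronate and was named outside the rule, was at 649.6, 350.5 and 243 CPM under CCl4 alone and 186 and 222 CPM under givinostat (-1.02 ± 0.37, SE, log2). Its level, like the summed level of the Ugt1a genes, was highest in CCl4 replicate 1.

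Genes that act after conjugation were followed next. Of 14 genes of mercapturate formation and glutathione breakdown, 6 were higher and 8 lower (median log2 difference -0.10), with Lap3 and Acy3 lower at an unadjusted p under 0.05. Of 10 genes of conjugate export and hydrolysis, 4 were higher and 6 lower (median -0.04), with the arylsulfatase gene Arsb lower at that level. Of 13 other conjugating enzymes, 8 were higher and 5 lower (median 0.10), with 1 higher and 3 lower at that level. Acsm3 was the higher one, and Acsm5 was among the lower. Of 10 other proteins of the glutathione transferase fold or the MAPEG membrane family, 4 were higher and 6 lower (median -0.15), none at that level. Over all genes, 3.52% were higher and 3.93% lower at that level. EdgeR called 0 genes in these lists, and DESeq2 0.

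Regulators of these genes were evenly divided, with 9 of 18 higher and 9 lower and a median log2 difference of 0.02. Ahr, the aryl hydrocarbon receptor, was at 47.5, 55.2 and 57.7 CPM under CCl4 alone and 39.6 and 26.7 CPM under givinostat (-0.69 ± 0.20, SE, log2; edgeR adjusted p = 0.446). Cebpb was lower (-0.38 ± 0.15, SE) and Ppara higher (0.51 ± 0.22, SE), each at an unadjusted p under 0.05. Of 15 NRF2 target genes outside the enzyme families, 5 were higher and 10 lower (median -0.34, range -1.08 to 1.37). DESeq2 called 1 higher and 0 lower, against 0.508 and 0.581% of all genes. The higher one was Slc7a11, at the upper end of that range. Among the lower genes, the quinone reductase gene Nqo1 was at 32.1, 47.0 and 22.2 CPM under CCl4 alone and 21.8 and 18.7 CPM under givinostat. The order of libraries was the same as for Gstm1, and the part of NRF2 in either gene was not tested.

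Of 14 target genes of CAR, PXR and AHR, 4 were higher and 10 lower (median -0.35). DESeq2 called 1 in each direction, against 0.508% of all genes as higher and 0.581% as lower. Cyp2b10, a CAR target, was at 9.48, 6.50 and 7.59 CPM under CCl4 alone and 21.2 and 16.4 CPM under givinostat (1.26 ± 0.22, SE, log2; adjusted p = 0.174 by edgeR and 0.000750 by DESeq2, Benjamini-Hochberg). Cyp1a2, an AHR target of pericentral hepatocytes, was at 432, 459 and 198 CPM under CCl4 alone and 184 and 132 CPM under givinostat (-1.20 ± 0.35, SE, log2; DESeq2 adjusted p = 0.0471). CCl4 replicate 3 was nearer to givinostat in Cyp1a2 also. Of 12 pericentral hepatocyte markers, which include Cyp1a2, 6 were higher and 6 lower (median 0.00). They summed to 2182 to 2767.5 CPM under CCl4 alone and to 4499.8 and 2769.9 CPM under givinostat, and none was at 0 in all libraries. Of 11 periportal markers 6 were higher and 5 lower (median 0.05), with sums of 14863 to 20743 CPM and of 20526 and 18662 CPM, and none was at 0 in all libraries. Their part in the levels of the conjugating enzymes was not tested.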

How the data were processed

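RNA was extracted from frozen liver and libraries were prepared with Illumina's TruSeq RNA reagents, according to the labels' protocols. Each deposited table from the authors holds raw counts of reads by gene symbol for a single library. Bowtie 0.12.2, mm8 and mm10 appear in the submitters' processing notes, which do not say what each was used for. How reads were counted, on which annotation and whether by strand is not given in the sources used here. Reads of paralogs and overlapping genes may therefore be misassigned or missing. The globin genes Hba-a1, Hba-a2, Hbb-bs and Hbb-bt were at 0 counts in all 5 libraries, and the reason was not tested. A count of 0 for a gene with close paralogs need not mean that it was silent. Rows bearing a calendar date as their symbol (26 per table, 0.144 to 0.169% of counts) were dropped. Counting error allows up to 3 reads where 0 were seen, or 0.135 to 0.156 CPM, and that limit covers counting error only.

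Groups and replicate numbers came from the labels, which state no batch. Counts of all 5 libraries were fitted with edgeR 4.0.16 in R 4.3.3 (filterByExpr, TMM scaling, quasi-likelihood model with treatment as its only term, 3 residual degrees of freedom), with Benjamini-Hochberg adjustment over 13590 genes and a threshold of 0.05. CPM used TMM-scaled library sizes. The log2 difference is the fitted log2 fold change, and its SE is its size over the square root of F. The edgeR procedure was also run on simulated counts, drawn gene by gene from the fitted dispersions. These held no outlying library and no reads shared between paralogs, so the run does not cover such cases. Alternatives were a replicate block, RLE scaling, no filter, a stricter filter (10 counts in every library of a group), DESeq2 1.42.0, an adjusted p of 0.1 and leaving out each library.

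The genes, lists and rules were chosen with earlier results of these data known. Genes named are the most abundant of each family or class per kilobase, those at an unadjusted p under 0.05, up to 4 per family with the smallest p and those of at least 50 CPM, and up to 3 per other list, of which 1 is not reported here; remaining members were added to complete their classes. Gene lists are described by counts and medians, with no test. A planned ranking of genes by correlation over libraries was not reported, as there were 5 libraries. Positions and transcripts are from GENCODE M21 (GRCm38), promoter sequences from RefSeq (GRCm38.p6). Shared sequence is the share of the different 50-base stretches in all coding transcripts of a gene that occur in a coding transcript of another member.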

Additional observations from a re-analysis of the deposited data

How the results depend on the processing

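The numbers of calls depended on the tool and on single libraries. Over all genes, edgeR called 1 gene (1 higher, 0 lower). It called 38 with no filter (23 higher, 15 lower), 0 with the stricter filter (0 higher) and 3 at an adjusted p of 0.1 (2 higher, 1 lower), and DESeq2 called 148 (69 higher, 79 lower). With each library left out in turn the number ran from 0 to 235 (0 to 119 higher, 0 to 116 lower), and the 235 came without CCl4 replicate 1. Among the conjugating enzymes, 0 were called, against 1 by DESeq2 and 0 to 3 with a library left out. The 3 were Ugt1a1, Ugt1a5 and Gstt3, without CCl4 replicate 1. Those at an unadjusted p under 0.05 were 8 higher and 7 lower. Without CCl4 replicates 1, 2 and 3 in turn they were 11, 7 and 6 higher and 7, 4 and 16 lower. The share of all genes at such a p, in either direction, moved as well. It was 15.9, 4.89 and 7.19% in these fits, against 7.45% with all libraries. Counts at such a p are not given for the fits without a givinostat library, which leave a single library in that group. With a library left out, the family medians ran from -0.36 to -0.016 for the UGT genes (-0.016 without CCl4 replicate 1), from 0.38 (without givinostat replicate 2) to 0.94 for the SULT, from -0.47 (without givinostat replicate 1) to -0.14 (without givinostat replicate 2) for the GST, with -0.20 and -0.17 without CCl4 replicates 1 and 2, and from -0.67 to 0.12 for the 3 MGST genes. The sign held without each library in turn for 39 of 49 tested genes. The sign turned for the other 10, which were Gsta3 (-0.28 to 0.055 with a library left out), Gstk1 (-0.12 to 0.30), Gstt1 (-0.039 to 0.11), Mgst2 (-0.76 to 0.12), Sult2a1 (-0.071 to 1.84), Gstm5 (-0.26 to 0.11), Gstp3 (-0.25 to 0.23), Sult1b1 (-0.31 to 0.22), Sult5a1 (-0.72 to 0.41) and Ugt1a9 (-0.98 to 0.057). The cause of these shifts was not tested.

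With the replicate number as a block, edgeR called 145 of 13590 genes (68 higher, 77 lower) and 10 of 49 conjugating enzymes. The 10 were Gsta1, Gstm1, Gstm2, Gstm3, Gstm4, Gstp1 and Gstp2 lower, and Sult2a1, Sult2a2 and Sult2a5 higher. Givinostat has no replicate 3, so CCl4 replicate 3 had its own term in this fit and added nothing to the treatment difference. The difference thus rested on replicates 1 and 2. For Gstm3 it was -2.80, and -2.69 in the fit without CCl4 replicate 3. The block gave 15 members lower at an unadjusted p under 0.05, where 6.23% of all genes had such a p in either direction. It also gave an MGST median of 0.15, and log2 differences of -0.013 for Gstt1 and 0.15 for Mgst2. No label says that equal numbers mark a shared mouse, litter or day. For that reason the numbers were not taken as pairs. The deviations of same-numbered libraries from their group means had correlations of -0.148 (replicate 1) and -0.0753 (replicate 2). These cannot decide whether libraries were paired, because the deviations of 2 givinostat libraries from their mean mirror each other.

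Depth limits the members of few counts: 17 did not pass the filter and were not tested.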
